A study of Mus musculus with 44 samples.

Results

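Of the 152393 accessible chromatin peaks in the deposited table, 7152 (4.69%) were open transiently in control late morulae. A peak belonged to this set when its mean accessibility in *Pou5f1* Ctrl late morulae was at least 1 higher, on the log2 scale, than in Ctrl morulae and also at least 1 higher than in Ctrl early inner cell masses (ICMs). The unit is the regularised log2 value (rlog), which the authors made from the number of Tn5 insertions in a window of 200 bp around each peak summit, so before shrinkage a difference of 1 is a change by a factor of 2. ATAC-seq, the assay used, reads open chromatin from the places where the transposase Tn5 inserts into DNA. As the members were chosen by the Ctrl values of these 3 stages, the rise and fall in Ctrl embryos is a description and not a finding. The questions put to the data were whether the same peaks opened and closed in embryos without Oct4, and what state they had in late ICMs with and without Oct4 or Sox2.

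The 44 libraries came from mouse embryos at 4 stages: morula (E2.75), late morula (E3.25), early ICM (E3.75) and late ICM (E4.5). The *Pou5f1* line (Oct4 in the sample names, after the protein) was sampled at all 4 stages and the *Sox2* line at both ICM stages, with 3 libraries in each of the morula conditions and 4 in each ICM condition, giving 12 conditions. Each line used a fluorescent null allele from the father (mKO2 in *Pou5f1*, EGFP in *Sox2*, carried by *Pou5f1* +/mKO2 or *Sox2* +/EGFP males) and a floxed allele from the mother, a flox/flox female in which Zp3-Cre, a recombinase active in growing oocytes, had deleted it. KO embryos therefore lacked the maternal and the zygotic gene, and Ctrl embryos lacked the maternal gene only, so no group was wildtype. Embryos from superovulated females were sorted by the fluorescence of the KO allele, and 20 to 40 of one genotype were pooled in each library. Morulae were used whole, with their outer cells, and no inhibitor. Embryos for ICM libraries were cultured in KSOM with 1 μM PD0325901, which blocks MEK, and their ICMs were then freed of trophectoderm by immunosurgery. In any comparison of late morula with ICM, the stage, the loss of outer cells, the culture and the inhibitor cannot be told apart.

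The late morula is the stage at which a compacted embryo has outer, polarised cells and inner cells that are beginning to part into the first lineages. Outer cells form the trophectoderm, the epithelium that pumps fluid into the blastocyst cavity, and inner cells form the ICM, which gives rise to epiblast and primitive endoderm. In outer cells the Hippo pathway is off, so that its coactivators join the TEAD factors, and the trophectoderm factors CDX2, GATA3, TFAP2C and the GRHL family are active there, whereas OCT4 and SOX2 maintain the pluripotency programme of the inner cells. The files do not show in which cells of the late morula a peak was open. In pooled embryos, fewer cells with an open site and less opening per cell cannot be told apart.

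The sequences below are the windows of the 8 members that opened and closed by the largest amounts in KO embryos, which the rule for the set did not use, and of both members near *Krt8*, a keratin gene of the trophectoderm. They are read from the plus strand of GRCm38, the build of mm10, and capitals mark matches on either strand to the CDX word (TTTATNG), the GATA word (AGATAA) or the TEAD word (GGAATG). No match to the GRHL word (AACCNGTT) or the AP-1 word (TGANTCA) was present in these 10 windows.
Srsf6 chr2:162924711-162924910: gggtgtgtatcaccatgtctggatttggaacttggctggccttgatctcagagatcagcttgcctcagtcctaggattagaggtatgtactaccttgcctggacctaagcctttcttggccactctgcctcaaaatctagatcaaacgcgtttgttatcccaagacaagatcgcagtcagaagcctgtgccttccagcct
Kmt2c chr5:25340033-25340232: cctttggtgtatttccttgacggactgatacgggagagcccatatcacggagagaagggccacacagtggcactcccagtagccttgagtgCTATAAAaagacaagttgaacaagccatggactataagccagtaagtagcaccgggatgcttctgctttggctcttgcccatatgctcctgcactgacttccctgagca
Rora chr9:68409022-68409221: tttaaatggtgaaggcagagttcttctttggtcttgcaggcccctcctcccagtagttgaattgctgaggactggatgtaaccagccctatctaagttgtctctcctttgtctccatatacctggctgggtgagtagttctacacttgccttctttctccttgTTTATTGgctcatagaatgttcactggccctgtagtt
Mast4 chr13:102849090-102849289: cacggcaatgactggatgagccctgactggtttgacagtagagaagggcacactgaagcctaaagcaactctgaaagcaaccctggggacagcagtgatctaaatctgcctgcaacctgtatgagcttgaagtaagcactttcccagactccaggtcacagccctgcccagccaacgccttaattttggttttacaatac
Zfp36l2 chr17:84135599-84135798: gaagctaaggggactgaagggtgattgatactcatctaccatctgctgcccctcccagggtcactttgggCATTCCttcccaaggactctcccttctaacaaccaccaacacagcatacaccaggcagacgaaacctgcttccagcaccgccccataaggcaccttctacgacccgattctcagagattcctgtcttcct
Ostc chr3:130693240-130693439: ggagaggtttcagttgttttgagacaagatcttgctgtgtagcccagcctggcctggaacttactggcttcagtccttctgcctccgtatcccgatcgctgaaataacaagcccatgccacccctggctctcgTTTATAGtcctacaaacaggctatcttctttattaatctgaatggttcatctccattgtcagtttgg
Med15 chr16:17670099-17670298: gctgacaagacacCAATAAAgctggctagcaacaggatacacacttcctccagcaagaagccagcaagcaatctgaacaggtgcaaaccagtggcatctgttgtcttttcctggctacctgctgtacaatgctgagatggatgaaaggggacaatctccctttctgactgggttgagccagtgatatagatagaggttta
Gm5269 chr1:45905168-45905367: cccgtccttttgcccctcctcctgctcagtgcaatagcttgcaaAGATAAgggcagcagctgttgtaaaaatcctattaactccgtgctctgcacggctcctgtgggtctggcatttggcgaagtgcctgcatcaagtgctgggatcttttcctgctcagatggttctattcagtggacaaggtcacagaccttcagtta
Krt8 chr15:102006437-102006636: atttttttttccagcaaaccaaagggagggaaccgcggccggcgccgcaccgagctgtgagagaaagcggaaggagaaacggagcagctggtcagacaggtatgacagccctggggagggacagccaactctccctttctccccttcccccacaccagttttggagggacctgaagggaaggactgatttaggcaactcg
Krt8 chr15:102010594-102010793: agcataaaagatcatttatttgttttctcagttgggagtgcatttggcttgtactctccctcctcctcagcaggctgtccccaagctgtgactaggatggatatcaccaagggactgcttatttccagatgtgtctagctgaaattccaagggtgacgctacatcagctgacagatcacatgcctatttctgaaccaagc
Of the 8 windows, 4 held a CDX word (those at *Kmt2c*, *Rora*, *Ostc* and *Med15*), 1 held a TEAD word (*Zfp36l2*) and 1 held a GATA word (*Gm5269*). The windows near *Srsf6* and *Mast4* and both *Krt8* windows held none of these 5 words. A match is a description of the letters and not a bound site.

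Libraries of one condition correlated across all peaks with Pearson's r between 0.762 and 0.908, and the median rlog over all peaks lay between 2.35 and 2.63 in the 44 libraries. The number of reads or insertions behind each value is unknown here. Because rlog pulls the values of weak peaks toward their mean over libraries, differences at weak members are understated. Nothing in the labels says that replicate pools came from separate matings, so the p-values below measure the spread between pools, which may be technical.

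In Ctrl embryos the members formed a narrow rise. Their mean rlog was 1.75 ± 0.09 (SD between libraries, n = 3) in morula and 1.64 ± 0.15 (n = 4) in early ICM. The 3 late morula libraries had means of 3.20 to 3.33 (SD 0.07), and the highest morula or early ICM library had 1.84. The median member was at percentile 27.2 of all peaks in Ctrl morula, at percentile 66.6 in late morula and at percentile 25.1 in early ICM, so these were weak peaks that reached an above-average level at 1 stage. The median difference was 1.41 between late morula and morula and 1.53 between late morula and early ICM. Every Ctrl late morula library lay above every Ctrl morula and early ICM library at 5240 members (73.3%), against 5.97% of all peaks, a share fixed largely by the rule.

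The members were also low in libraries of Ctrl embryos that the rule did not use. In Ctrl late ICM of the *Pou5f1* line their mean was 1.81 ± 0.06 (n = 4). In Ctrl ICMs of the *Sox2* line, which share no library with the rule, the mean was 1.88 ± 0.11 (n = 4) at the early and 1.89 ± 0.15 (n = 4) at the late stage. Between these stages the median difference over members was 0.00, and limma called 11 members higher and 4 lower in late than in early ICM (adjusted p under 0.05 over all peaks), against 0.474% and 0.121% of all peaks. The count of 11 was 0 without Ctrl late ICM replicate 1 of the *Sox2* line, 1 without Ctrl late ICM replicate 2 or Ctrl early ICM replicate 2, and 7 without Ctrl late ICM replicate 4 or Ctrl early ICM replicate 3. At an unadjusted p under 0.05 the counts were 311 (4.35%, against 6.91% of all peaks) and 269 (3.76%, against 4.69%), and with only the compared libraries fitted the 11 became 6. Of the 12 conditions, Ctrl late morula had the highest mean at 4796 members (67.1%), KO late morula at 831 (11.6%, against 9.60% of all peaks), *Pou5f1*-KO late ICM at 817 (11.4%, against 8.91%) and *Sox2*-KO late ICM at 507 (7.09%, against 10.4%). The first of these, against 10.5% of all peaks, is fixed largely by the rule. It leaves far fewer members to the other conditions, so the other 3 shares cannot be set directly against those of all peaks. The remaining conditions were highest at 64 members or fewer each.

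**Figure D1:**
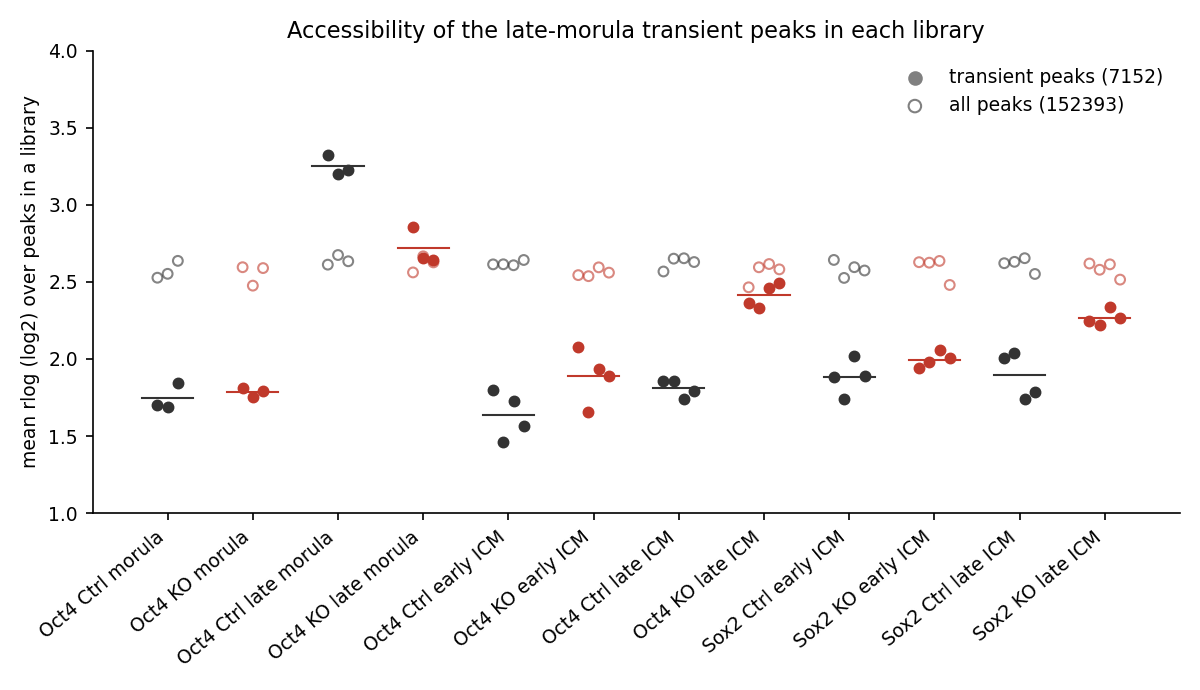
Mean rlog (log2 scale, vertical axis) over the 7152 members (filled points) and over all 152393 peaks (open points) in each of the 44 libraries, by condition, with Ctrl in black, KO in red and a line at the mean of each condition over members. Ctrl late morula libraries sit at 3.20 to 3.33, KO late morula libraries at 2.64 to 2.86, and among ICMs the KO late ICM libraries of both lines sit above the Ctrl libraries of their line.

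The members were mostly distant from transcription start sites. Within 100 bp of a start site lay 3.65% of members and 10.6% of all peaks. Introns held 54.7% of members against 47.4% of all peaks, intergenic DNA 38.9% against 42.3%, coding exons 1.41% against 2.32% and UTRs 2.45% against 4.61%. The median distance to the nearest start site of a protein-coding gene was 14164 bp, and 11676 bp for all peaks. Members held fewer CpG dinucleotides per window (2.45 against 4.01) at nearly the same GC content (median 48.5% against 50%), and a median of 10.5% of the window was repeat sequence against 12.5%. The 8028 peaks that opened by at least 1 in Ctrl late morula but did not fall by 1 in early ICM differed from the members in position: 18.3% of them lay within 100 bp of a start site and they held 6.02 CpGs per window. The 20461 peaks that fell by at least 1 into the ICM without having opened by 1 were close to the members in both, at 3.16% and 2.32 CpGs, though a median of 28.5% of their window was repeat sequence. Members were found on every autosome and on chromosome X, and made up between 3.66% (chromosome 11) and 5.88% (chromosome 15) of the peaks of a chromosome. These features took no part in the rule, and the shares are descriptions with no test.

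Short words of 17 transcription factor families were sought in each window on either strand, and words may overlap. The CDX word was present in 22.9% of members and in 9.23% of all peaks, the largest gap in percentage points of the 17. CDX2 is the caudal-type homeodomain factor of the trophectoderm. Among the 8028 peaks that opened and did not fall by 1 it was in 16.2%, and among the 20461 peaks that fell without having opened it was in 9.65%. The GRHL word, of the grainyhead-like factors of epithelia, was in 4.54% of members and 1.79% of all peaks. The GATA word was in 23.4% against 17.5%, the AP-1 word in 10.4% against 7.75% and the TEAD word in 21.3% against 18.9%. At least one of the CDX, GRHL and GATA words was in 43.4% of members and in 25.8% of all peaks, and 413 members held both the CDX and the GATA word.

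Of the other 12 families, 10 had words that were rarer in members than in all peaks, and T-box and NF-Y were the exceptions. The joined word of OCT4 and SOX2 (TTGT and ATGCAAA separated by 1 base, 1 mismatch allowed) was in 0.238% against 0.887%, the word of ESRRB and NR5A (CAAGGTCA) in 1.29% against 5.95%, and that of OTX and OBOX (GGATTA), homeodomain factors of cleavage stages, in 6.07% against 11.5%. The SP and KLF word (GGGCGGG) was in 3.02% against 8.17%, the TFAP2 word (GCCNNNGGC) in 7.44% against 11% and the CTCF word (CCNNN followed directly by AGNNGGC) in 5.58% against 8.21%. The OCT word alone (ATGCAAAT, 1 mismatch allowed, which overlaps the joined word) was in 13.7% against 15.7%, and the SOX word (ACAATGG) in 2.66% against 4.0%. The remaining shares were those of NF-Y (CCAAT, 25% against 24.7%), T-box (AGGTGTNA, 4.87% against 4.53%), ETS (CCGGAAG, 1.96% against 2.71%) and KLF (GGGTGTG, 13.9% against 14.9%). These shares depend on how strictly a word is matched and on base composition, and no enrichment was tested.

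**Figure D2:**
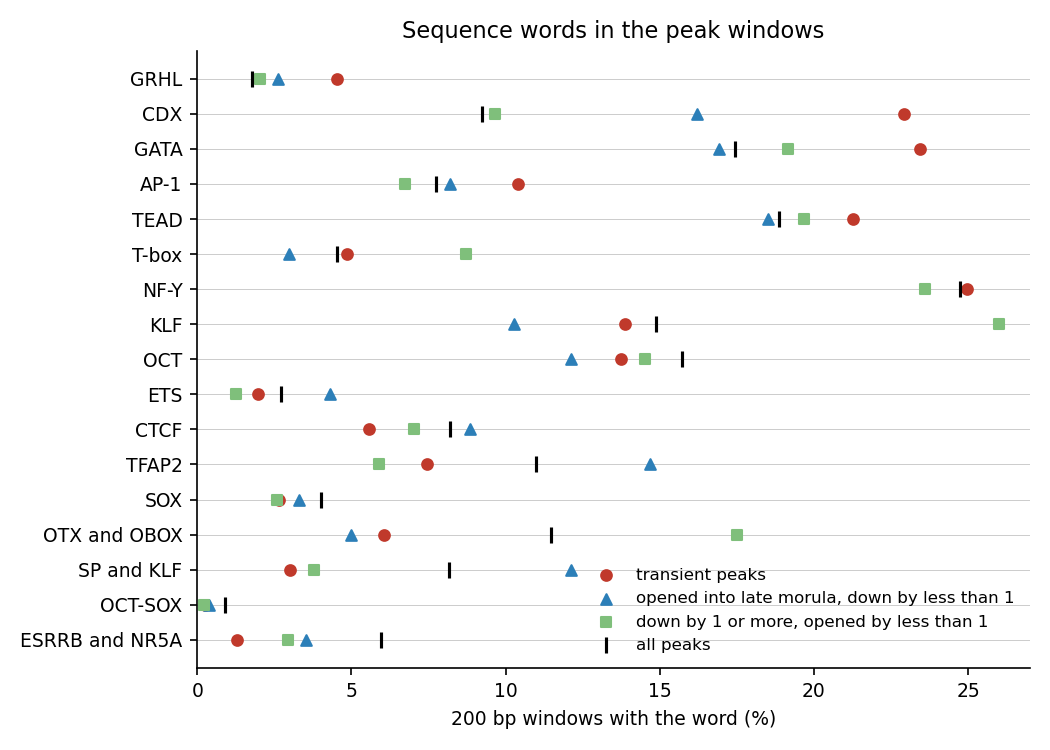
Share of 200 bp windows (%, horizontal axis) holding each of the 17 words among members (circles), peaks that opened and fell by less than 1 (triangles), peaks that fell by 1 or more and had opened by less than 1 (squares) and all peaks (bars). The CDX word stands at 22.9% of members against 9.23% of all peaks, and the ESRRB and NR5A word at 1.29% against 5.95%.

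In embryos without maternal and zygotic Oct4 the members also rose at late morula and were lower again in early ICM. Their mean rlog was 1.78 ± 0.03 (n = 3) in KO morula, 2.72 ± 0.12 (n = 3) in KO late morula and 1.89 ± 0.17 (n = 4) in KO early ICM. The KO late morula libraries had means of 2.86, 2.66 and 2.64, and no KO morula or KO early ICM library was above 2.07. The median difference over members was 0.93 between KO late morula and KO morula, against 0.07 for all peaks, and 0.83 between KO late morula and KO early ICM, against 0.04. Both differences were above 0 at 6016 members (84.1%) and at 31.2% of all peaks. The limits that defined the set in Ctrl embryos were both met by the KO means at 1769 members (24.7%), against 2.61% of all peaks, while 2641 members met 1 of them and 2742 met neither. Every KO late morula library was above every KO morula and KO early ICM library at 1648 members (23.0%), against 3.23% of all peaks.

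Tested peak by peak with limma, 1164 members rose from KO morula to KO late morula and 1 fell (adjusted p under 0.05), where 1.86% of all peaks rose and 1.51% fell. From KO late morula to KO early ICM, 2010 members (28.1%) fell, that is, were higher in late morula (10.2% of all peaks), and 9 rose (8.33%). This fall was not particular to the members. It was called at 38.0% of the 20461 peaks that fell in Ctrl embryos without having opened by 1. Of the 8028 peaks that opened and did not fall by 1, 3.70% had it. Both calls were made at 578 members, against 0.568% of all peaks, and the calls share the KO late morula libraries. These counts leaned on single libraries. Without KO late morula replicate 1, the library with the highest mean over members, 252 members rose from morula, 981 were higher than in early ICM and 85 had both calls. Without KO late morula replicate 3, 722 rose from morula and 327 had both calls. Without KO morula replicate 1, 2 or 3 the first count was 654, 721 or 721 and, with the early ICM call from the fit to all libraries, 367, 367 or 396 members had both calls. The direction of the median did not turn in any of these fits.

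The level in KO late morula was below that in Ctrl late morula, with a median difference over members of -0.48, and slightly above it in early ICM (0.23) and morula (0.02). These 3 differences share Ctrl libraries with the rule, which chose peaks that were high in one and low in the other 2 of these groups, and are given as values with no test.

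**Figure D3:**
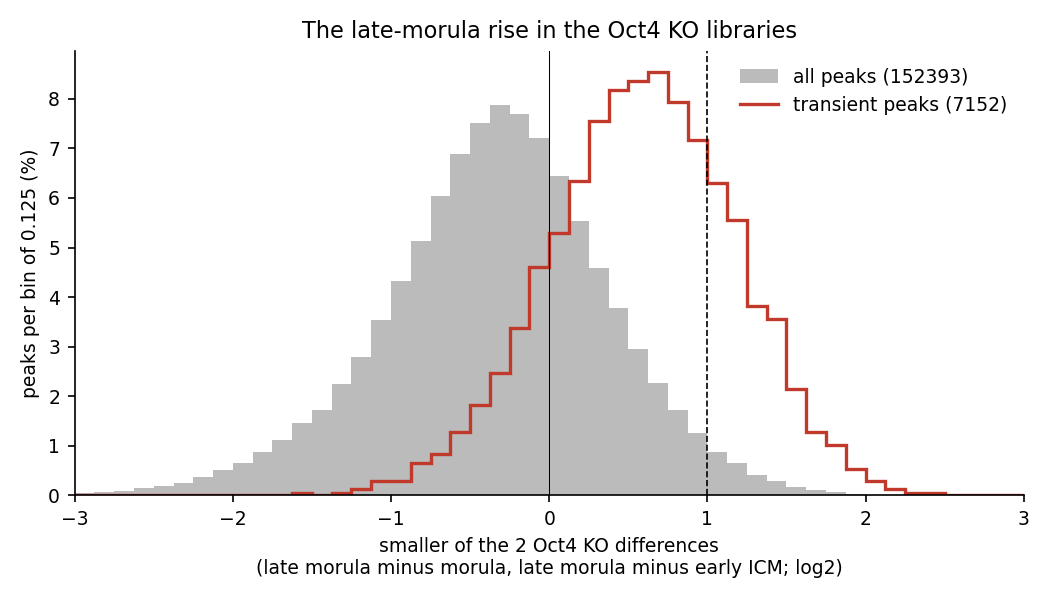
Share of peaks (%, vertical axis) in bins of the smaller of 2 KO differences on the log2 scale, late morula minus morula and late morula minus early ICM, for members (red line) and all peaks (grey), drawn from -3 to 3. The dashed line marks 1, the limit used in Ctrl embryos, and the members with both KO differences at or beyond it are 24.7%, against 2.61% of all peaks.

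The 8 peaks whose sequences are printed above stand for the members that opened and closed without Oct4, namely those with the largest differences among 493 members with both calls and no overlap between KO libraries. They were chosen for these values. The largest smaller-of-both difference belonged to a peak 6717 bp upstream of *Srsf6*, which encodes a splicing factor. Its rlog values were 4.11, 3.82 and 4.16 in KO late morula, 0.46, 2.14 and 1.07 in KO morula, and 2.23, 1.33, 0.25 and 0.50 in KO early ICM. Each late morula library lay above every library of these other stages, as the choice required. The difference was 2.81 ± 0.534 (SE) to KO morula (adjusted p = 0.0005, limma) and 2.96 ± 0.499 to KO early ICM (adjusted p = 8.7e-06). In Ctrl embryos the late morula libraries read 3.52, 4.10 and 4.23, values that overlapped those of the KO libraries.

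A peak in an intron of *Kmt2c*, which encodes a histone H3K4 methyltransferase, read 4.26, 3.20 and 4.14 in KO late morula, 0.74, 0.95 and 1.57 in KO morula, and 1.80, 1.54, 0.51 and 0.79 in KO early ICM. It rose by 2.78 ± 0.546 from morula (adjusted p = 0.00076, limma) and was 2.71 ± 0.511 higher than in early ICM (adjusted p = 6.2e-05). An intergenic peak 244664 bp from the start of *Rora*, a nuclear receptor gene, read 4.94, 4.37 and 5.07 in KO late morula, 2.94, 1.31 and 2.71 in KO morula, and 3.09, 0.93, 2.54 and 2.83 in KO early ICM. Its difference to KO morula, 2.47 ± 0.556 (adjusted p = 0.004, limma), depended on KO morula replicate 2, without which the adjusted p was 0.064. A peak in an intron of *Mast4*, a microtubule-associated kinase gene, was the strongest of the 8, with 5.45, 5.96 and 5.89 in KO late morula, 3.57, 3.33 and 3.11 in KO morula, and 4.28, 2.51, 2.51 and 3.37 in KO early ICM. All 3 late morula libraries lay above every library of these other stages, as the choice of the 8 peaks required.

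The other 4 peaks were in an intron of the unnamed transcript AC132455.2, 52248 bp from *Zfp36l2* (an mRNA decay factor), 3282 bp from *Ostc* (a subunit of the oligosaccharyltransferase), in an intron of *Med15* (a subunit of Mediator), and 355 bp from the start of *Gm18303*, with *Gm5269* the nearest coding gene. Their differences ranged from 2.49 to 2.93 against KO morula and from 2.32 to 2.43 against KO early ICM. All 4 kept both calls when any 1 library was left out. Of the 8 peaks, 3 were also called higher in *Pou5f1*-KO than in Ctrl late ICM, where 23.1% of all members and 8.19% of all peaks were. The difference was 1.72 ± 0.441 at *Gm5269* (adjusted p = 0.0024, limma), a call kept without any 1 library. It was 1.5 ± 0.454 at *Mast4* (adjusted p = 0.012, 0.13 without Ctrl late ICM replicate 4) and 1.29 ± 0.481 at *Rora* (adjusted p = 0.047, 0.15 without KO late ICM replicate 4), where leaving out 4 and 7 of the 8 libraries in turn ended the call. At the *Gm5269* peak the KO late ICM libraries read 3.73, 3.32, 3.58 and 3.02 and the Ctrl libraries 1.61, 2.06, 1.28 and 1.83. The groups did not overlap, and KO late ICM was close to the KO late morula values of 4.05, 3.67 and 3.71.

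**Figure D4:**
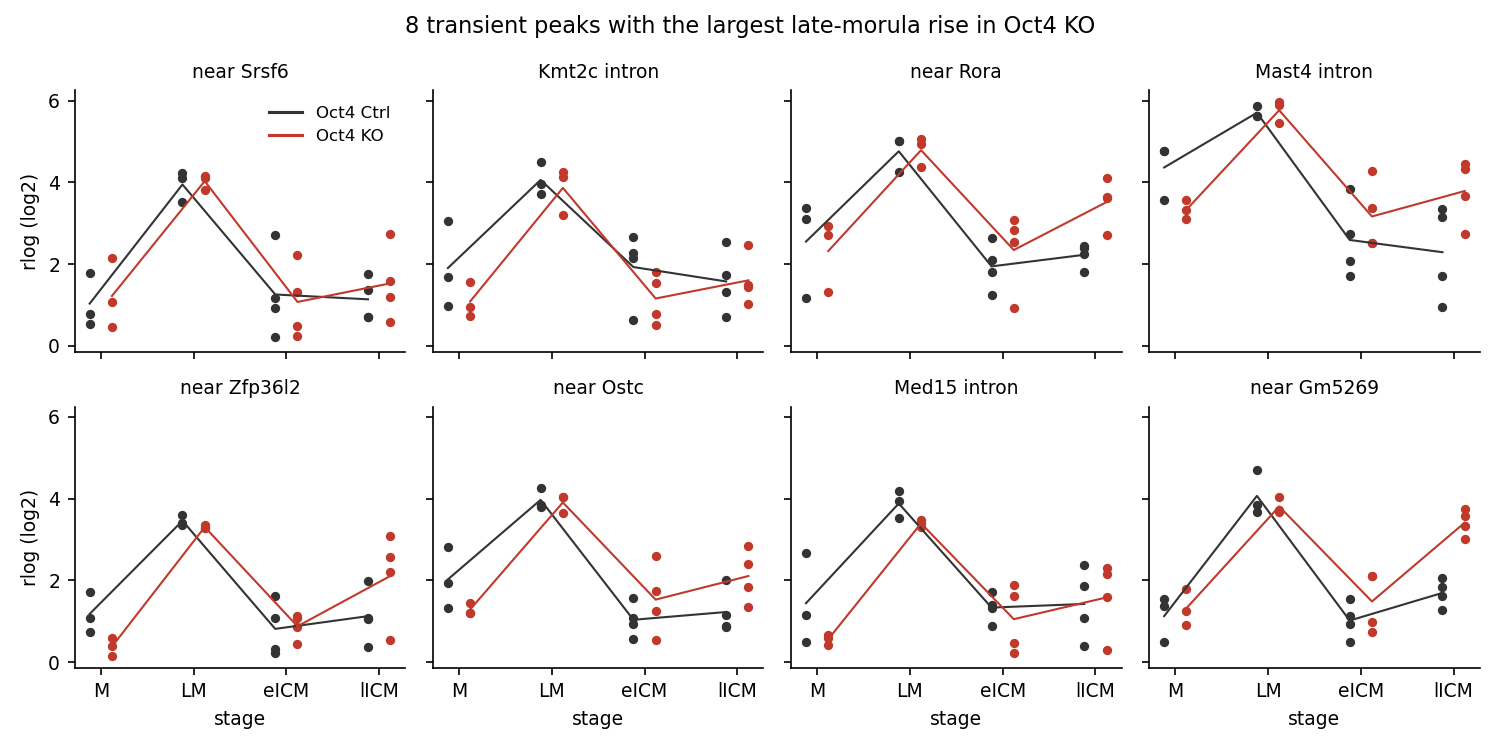
rlog (log2 scale) of each library of the *Pou5f1* line (points) and mean of each condition (lines) at the 8 members, with Ctrl in black and KO in red and with M for morula, LM for late morula, eICM for early ICM and lICM for late ICM. In each panel all 3 KO late morula points lie above every KO morula and KO early ICM point, as the choice of these peaks required. At *Gm5269* the KO late ICM points, 3.02 to 3.73, lie above the Ctrl points, 1.28 to 2.06.

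The 4 members with the largest Ctrl differences are given as a description. All lay in introns, of *Bcar3* (an adaptor protein), *Ano7* (an anoctamin), *Adipor2* (an adiponectin receptor) and *Serhl* (a serine hydrolase-like protein). At *Bcar3* the Ctrl libraries read 2.47, 1.38 and 0.97 in morula, 5.19, 5.80 and 5.04 in late morula and 3.06, 2.26, 2.88 and 0.91 in early ICM. The KO libraries, which were not used to choose it, read 2.09, 3.47 and 2.12 in morula, 4.29, 5.22 and 4.91 in late morula and 1.84, 2.67, 3.09 and 3.15 in early ICM. The KO late morula values again did not overlap with either neighbouring stage, with differences of 2.25 ± 0.496 (adjusted p = 0.0031, limma) and 2.12 ± 0.464 (adjusted p = 0.00052). These calls were kept without any 1 library. In *Pou5f1*-KO late ICM the peak was 1.32 ± 0.429 above Ctrl (adjusted p = 0.02, limma, 0.10 without Ctrl late ICM replicate 3). At *Ano7* KO late morula was 2.63 ± 0.431 above KO morula (adjusted p = 3.7e-05, limma) and 1.37 ± 0.403 above KO early ICM (adjusted p = 0.01, 0.08 without KO late morula replicate 1). The *Ano7* peak was also higher in KO than in Ctrl late ICM, by 1.32 ± 0.373 in the *Pou5f1* line (adjusted p = 0.0063, limma) and 1.47 ± 0.373 in the *Sox2* line (adjusted p = 0.0045, 0.071 without Ctrl late ICM replicate 4). At *Adipor2* KO late morula was 3.17 ± 0.502 above KO early ICM (adjusted p = 2.2e-06) and 2.08 ± 0.537 above KO morula (adjusted p = 0.014, 0.12 without KO late morula replicate 1). At *Serhl* the differences were 1.78 ± 0.493 to KO morula (adjusted p = 0.024) and 1.76 ± 0.462 to KO early ICM (adjusted p = 0.0038), with adjusted p of 0.23 and 0.06 without KO late morula replicate 1.

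At the limit of the rule, membership separated peaks that were alike. The smaller Ctrl difference was 1.00008 at a peak near *Smg1*, 1.00011 at one in *4930562C15Rik* and 1.00013 at one in *Btbd10*, all members, and 0.999971 at a peak 59076 bp from *Bmp15*, 0.999913 in *Firre* and 0.999898 at one 25490 bp from *Tmem132c*, all outside. Leaving out 1 Ctrl library at a time kept between 82.7% and 94.2% of the members and gave sets of 6847 to 8296 peaks. For sets chosen without one of the 3 Ctrl late morula libraries, the median difference to morula in the library left out was 1.35, 1.20 and 1.23, against 1.41 to 1.43 in the libraries that chose them. A late morula library with no part in the choice had the same direction at a somewhat smaller size, though the morula libraries were shared.

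In *Pou5f1*-KO late ICM the members were more open than in Ctrl late ICM. Their mean was 2.41 ± 0.08 (n = 4, libraries 2.33 to 2.49) in KO and 1.81 ± 0.06 (n = 4, 1.74 to 1.86) in Ctrl, with no overlap, and the median member was at percentile 29.9 of all peaks in Ctrl and 47.2 in KO. The limma test called 1655 members higher (23.1%) and 39 lower (0.545%), where 8.19% of all peaks were higher and 10.1% lower. The median difference over members was 0.59, against -0.04 over all peaks, and 79.9% of members were above 0. With 1 library left out at a time, 1279 to 1512 were called higher. Of the 8028 peaks that opened and did not fall by 1, 10.9% were called higher, and of the 20461 that fell without having opened, 14.8%. The Ctrl late ICM libraries were not used by the rule, but they follow the early ICM group that was, at which the members are low by choice.

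Peaks within 10 kb of 20 trophectoderm genes were examined in the same libraries. At these 153 peaks the mean rlog was 3.60 ± 0.16 (n = 4) in Ctrl and 3.87 ± 0.12 (n = 4) in *Pou5f1*-KO late ICM, with library ranges of 3.37 to 3.71 and 3.70 to 3.95 that met at their ends, and limma called 26 higher and 8 lower (17.0% and 5.23%, against 8.19% and 10.1% of all peaks). In the *Sox2* line it was 3.49 ± 0.07 (3.39 to 3.56) in Ctrl and 3.90 ± 0.09 (3.80 to 4.01) in KO, with 18 called higher and 2 lower (11.8% and 1.31%, against 2.71% and 4.88%). The 177 peaks near 20 pluripotency genes had a mean of 4.09 ± 0.15 in Ctrl and 3.35 ± 0.06 in *Pou5f1*-KO late ICM. There 3 were called higher and 53 lower (1.69% and 29.9%), and in *Sox2*-KO late ICM 5 higher and 27 lower (2.82% and 15.3%). Gains were not confined to the trophectoderm list. Near primitive endoderm genes 13.9% of peaks were called higher and 13.0% lower in *Pou5f1*-KO late ICM, and 4.63% and 2.78% in *Sox2*-KO. Near Hippo genes 6.47% were higher and 2.16% lower in *Sox2*-KO late ICM, and near polarity, junction and cavity fluid genes 6.45% and 2.15%. In *Pou5f1*-KO these lists had 9.91% and 6.45% higher. The part of remaining trophectoderm cells, or of any other cell mixture, in the change at the members was not tested.

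Among members with no overlap between KO and Ctrl libraries, the largest increase in *Pou5f1*-KO late ICM was at a peak 4930 bp from the start of *Ikzf2*, a zinc finger factor of the Ikaros family, which read 4.65, 4.43, 4.01 and 4.58 in KO and 1.91, 0.77, 0.91 and 1.19 in Ctrl late ICM. It was 3.22 ± 0.429 higher in KO (adjusted p = 3.5e-09, limma), and in KO early ICM it already read 3.45 to 4.79. KO late ICM was also higher than Ctrl late morula was on average. In *Sox2*-KO late ICM the peak was 1.87 ± 0.429 above Ctrl (adjusted p = 0.0012, limma).

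The largest decreases were at intergenic members. A peak 4347 bp from *Rabggtb*, a subunit of the enzyme that prenylates Rab proteins, read 1.37, 0.95, 0.71 and 1.02 in KO and 3.77, 3.89, 3.26 and 3.65 in Ctrl late ICM (-2.63 ± 0.414, adjusted p = 4.2e-07, limma). Its KO late morula libraries, at 2.13, 2.41 and 1.70, lay within the range of the KO morula libraries, at 3.04, 1.49 and 2.10. A peak 48783 bp from *Gadl1*, an amino acid decarboxylase gene, read 2.12, 0.82, 1.36 and 1.35 in KO and 3.32, 2.28, 3.62 and 4.38 in Ctrl (-1.99 ± 0.424, adjusted p = 0.00021, limma). The groups did not overlap at either peak, which was a condition for naming them. In Ctrl embryos the means from late morula through early to late ICM were 4.62, 3.34 and 3.64 at the *Rabggtb* peak, and 3.73, 2.26 and 3.40 at the *Gadl1* peak.

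Part of the higher state in KO late ICM arose between the ICM stages. From KO early to KO late ICM, limma called 718 members higher and 1 lower, where 1.52% of all peaks were higher and 0.678% lower, and the median difference was 0.50 (0.76 among the 2496 members at or above the median rlog). This count fell to 327 without KO late ICM replicate 4, 379 without KO late ICM replicate 3, 344 without KO early ICM replicate 2 and 465 without KO early ICM replicate 4. The Ctrl libraries of the *Pou5f1* line differed by a median of 0.17 between these stages, a value that shares the early ICM libraries with the rule. Between KO late morula and KO late ICM, 1080 members (15.1%) were higher in late morula, a share near the 13.5% of all peaks, and 304 (4.25%) were lower, against 11.1%, with a median difference of 0.32. Among the 2496 members at or above the median rlog that median was 0.106. Without KO late morula replicate 1 the count of 1080 was 626. The count of 304 ranged from 147 to 306 with 1 library left out at a time.

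In *Sox2*-KO late ICM the members were also more open than in Ctrl. The mean over members was 2.27 ± 0.05 (n = 4, libraries 2.22 to 2.34) in *Sox2*-KO late ICM and 1.89 ± 0.15 (n = 4, 1.74 to 2.04) in Ctrl, and the groups did not overlap. With limma, 563 members were higher and 12 lower in KO late ICM, where 2.71% of all peaks were higher and 4.88% lower, and the median difference was 0.36 (0.60 among the 2496 members at or above the median rlog) with 72.7% of members above 0, against 0.01 and 51.0% for all peaks. The count of 563 fell to 320 without *Sox2*-KO late ICM replicate 3, to 369 without replicate 2, and to 374 without Ctrl late ICM replicate 4. The 12 called lower ranged from 5 to 15 with 1 library left out at a time. In early ICM the mean was 2.00 ± 0.05 in KO and 1.88 ± 0.11 in Ctrl (n = 4 each), with library ranges of 1.94 to 2.06 and 1.74 to 2.02 that overlapped. There 30 members were called higher and 7 lower, where 0.238% of all peaks were higher and 1.91% lower, and the median difference was 0.12. The 30 became 15 without Ctrl early ICM replicate 2, 16 without KO early ICM replicate 1 and 15 without KO early ICM replicate 3, and 8 with only the compared libraries fitted. The test of the difference between the late and the early effect of *Sox2* loss called 0 members in either direction by limma, and 4 and 25 of all peaks. At an unadjusted p under 0.05 the counts of members were 700 (9.79%, against 3.77% of all peaks) and 143 (2.00%, against 4.44%).

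The knockouts of the separate lines, which share no library, had 253 members called higher in both late ICMs (adjusted p under 0.05 in each by limma), where 1.02% of all peaks were. These were 15.3% of the members called higher in *Pou5f1*-KO and 44.9% of those called higher in *Sox2*-KO late ICM, near the 12.4% and 37.5% of all peaks called higher. Without *Sox2*-KO late ICM replicate 3 the 253 became 150. The difference between the knockout effects in late ICM was tested as a contrast: the *Pou5f1* effect was the more positive at 23 members (0.322%, close to the 0.351% of all peaks) and the less positive at 9 (0.126%, against 0.554%), and the median of the difference was 0.22. At an unadjusted p under 0.05 the counts were 683 (9.55%, against 5.81% of all peaks) and 203 (2.84%, against 6.67%).

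**Figure D5:**
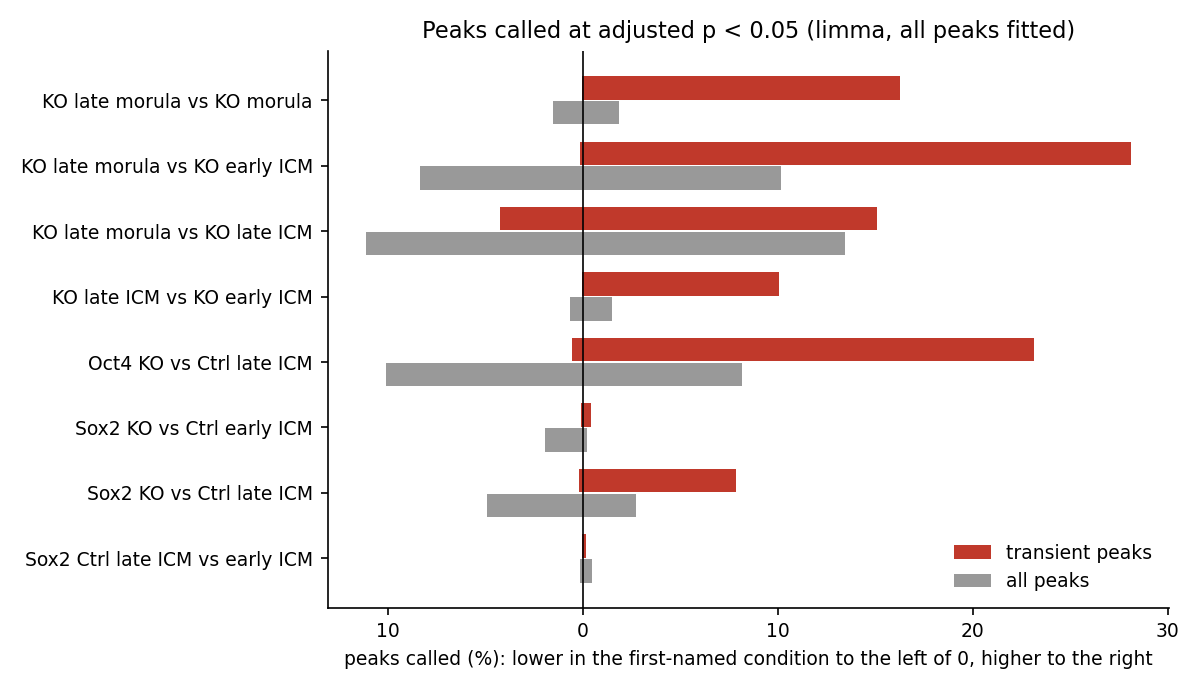
Share of members (red) and of all peaks (grey) called by limma (%, adjusted p under 0.05) in each comparison that the rule did not use, with peaks higher in the first-named condition to the right of 0 and lower to the left. In late ICM, 23.1% of members were higher in *Pou5f1*-KO and 7.87% in *Sox2*-KO, against 8.19% and 2.71% of all peaks.

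In *Sox2*-KO early ICM, an intronic peak of *Dchs2*, a cadherin gene, read 2.29, 3.51, 2.78 and 3.79 in KO and 0.77, 0.75, 0.58 and 1.97 in Ctrl (2.08 ± 0.427, adjusted p = 0.00065, limma). It stayed higher in late ICM, by 1.99 ± 0.427 (adjusted p = 0.00044, limma). A peak 176084 bp from *Vgll3*, a cofactor of TEAD, read 1.74, 3.32, 1.88 and 3.01 in KO and 0.16, 1.15, 0.40 and 0.47 in Ctrl early ICM (1.94 ± 0.431, adjusted p = 0.0021), and was 1.79 ± 0.431 above Ctrl in late ICM (adjusted p = 0.0023). The largest decreases were at an intronic peak of *Lap3*, a leucine aminopeptidase gene, with 3.42, 2.48, 2.62 and 3.71 in KO and 4.08, 4.68, 4.96 and 5.63 in Ctrl (-1.78 ± 0.39, adjusted p = 0.0017, limma), and at a peak in an intron of *Csnk1g3*. The latter (-1.67 ± 0.42, adjusted p = 0.01, limma) lost its call without any of 3 libraries, with an adjusted p of 0.099 without Ctrl early ICM replicate 3. In *Pou5f1*-KO late ICM the same peak was higher than in Ctrl, by 2.05 ± 0.42 (adjusted p = 0.00011, limma), a call kept without any 1 library.

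In *Sox2*-KO late ICM the largest increases were at a peak 19022 bp from *Gm3839*, with 3.21, 3.18, 4.31 and 2.10 in KO and 0.80, 0.82, 0.63 and 0.49 in Ctrl (2.51 ± 0.443, adjusted p = 1.2e-05, limma), and in an intron of *Mipep*, a mitochondrial peptidase gene, with 3.70, 3.58, 4.06 and 3.27 in KO and 0.79, 2.18, 1.38 and 1.07 in Ctrl (2.30 ± 0.455, adjusted p = 0.00012, limma). Loss of *Pou5f1* also went with higher values at both peaks, by 1.80 ± 0.443 (adjusted p = 0.0015, limma) and 1.51 ± 0.455 (adjusted p = 0.011, 0.061 without Ctrl late ICM replicate 2 of the *Pou5f1* line). The largest decreases were at a peak in an intron of *Ccnc*, the cyclin C gene, with 0.55, 2.60, 2.70 and 1.13 in KO and 5.05, 3.83, 3.754 and 4.01 in Ctrl (-2.42 ± 0.48, adjusted p = 0.00012, limma), and in an intron of *Stmnd1*, with 0.45, 1.42, 1.67 and 1.86 in KO and 4.29, 3.68, 3.36 and 3.33 in Ctrl (-2.32 ± 0.451, adjusted p = 8.3e-05, limma). The *Stmnd1* window is one of the 17 members with the joined word of OCT4 and SOX2. The median difference over those 17 was the other way, 0.27 in *Sox2*-KO and 0.50 in *Pou5f1*-KO late ICM. The *Ccnc* peak fell in late ICMs without *Pou5f1* too (-1.58 ± 0.48, adjusted p = 0.012, limma, 0.079 without Ctrl late ICM replicate 1 of the *Pou5f1* line).

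The words in the windows went with the size of some of these differences, given here as shares with no test. Of members with a TEAD word, 32.1% were called higher in *Pou5f1*-KO late ICM, against 20.7% of members without it, and among all peaks the share was 13.1% with the word and 7.05% without. For the GATA word the shares of members were 31.9% and 20.5%, and of all peaks 18.3% and 6.06%. For the GRHL word they were 30.5% and 22.8% of members, and 12.6% and 8.11% of all peaks. For the CTCF word they were 10.3% and 23.9% of members, and 2.78% and 8.67% of all peaks. For these 4 words the order in members was thus that of all peaks. With and without the CDX word the shares in *Pou5f1*-KO late ICM were 23.3% and 23.1% of members, and 11.5% and 7.85% of all peaks. In *Sox2*-KO late ICM the share called higher was 12.4% with a CDX word and 6.53% without among members, and 6.56% and 2.32% among all peaks. For the TEAD word these shares were 11.6% and 6.87% of members, and 4.87% and 2.21% of all peaks. Both limits were met in KO embryos by 29.5% of members with a CDX word and 23.3% without, and by 5.52% and 2.31% of all peaks.

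Genes of 7 lists were then followed. Of 20 trophectoderm genes, 5 had a member within 10 kb of a start site (*Tfap2a*, *Elf5*, *Krt8*, *Krt18* and *Id2*), and 12 of the 153 peaks in these windows were members (7.84%, against 4.69% of all peaks). No member lay within 10 kb of a start of *Cdx2*, *Gata3*, *Tfap2c* or *Tead4*. Of 20 pluripotency genes, *Esrrb* and *Utf1* had one each (2 of 177 peaks), and of 16 primitive endoderm genes *Hnf4a*, *Dab2* and *Col4a2* had one (4 members among 108 peaks). The Hippo list had 4 genes of 22 with a member (*Wwtr1*, *Tead2*, *Lats1* and *Mob1b*, with 6 of 232 peaks), the list of polarity, junction and cavity fluid genes 5 of 26 (among them *Prkci*, *Tjp1*, *Atp1b1* and *Dsp*, with 7 of 279 peaks), and the FGF and ERK list 4 of 20 (*Fgfr1*, *Fgfr4*, *Grb2* and *Spry1*, with 5 of 170 peaks). None of the 74 peaks near 15 genes of the cleavage-stage list was a member. Except for the trophectoderm list, these shares were below that of all peaks.

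Both limits were met in KO embryos by 6 of the 12 trophectoderm members, where 24.7% of all members and 2.61% of all peaks met them. In the other lists it was 1 of 2 pluripotency, 1 of 4 primitive endoderm, 1 of 6 Hippo, 2 of 7 polarity and 0 of 5 FGF and ERK members. Up to 3 members of each list are named, chosen for the largest smaller-of-both KO stage difference, so their stage differences are a description and their p-values no independent evidence of a rise. Both named *Krt8* peaks, 2055 bp and 6212 bp from its start, were higher in KO late morula than in KO morula. The nearer read 4.11, 3.254 and 2.752 in KO late morula, 0.94, 1.16 and 1.94 in KO morula and 2.28, 1.30, 0.69 and 1.503 in KO early ICM. It was 1.93 ± 0.469 higher than in KO early ICM (adjusted p = 0.0018, limma), a call kept without any 1 library. Against KO morula the difference was 2.03 ± 0.501 (adjusted p = 0.0097), and the adjusted p was 0.15 without KO late morula replicate 1. The farther read 3.59, 3.05 and 3.97 in KO late morula and 1.00, 2.20 and 1.46 in KO morula (1.98 ± 0.509, adjusted p = 0.013, limma, 0.10 without KO morula replicate 1), and was 1.62 ± 0.476 above KO early ICM (adjusted p = 0.01, 0.074 without KO late morula replicate 3). A peak in an intron of *Elf5*, an ETS factor of the trophoblast, read 2.53, 2.60 and 2.77 in KO late morula and 0.67, 0.86 and 2.12 in KO morula, without reaching the threshold (1.42 ± 0.513, adjusted p = 0.11, limma). Against KO early ICM, at 1.29, 0.58, 1.32 and 1.66, it was called (1.42 ± 0.48, adjusted p = 0.027, limma), but leaving out 4 of the 7 libraries in turn ended the call (0.10 without KO early ICM replicate 2). None of these 3 was called in either late ICM comparison of KO with Ctrl. Of all 12 trophectoderm members, 3 were called higher in *Pou5f1*-KO and 1 in *Sox2*-KO late ICM. Among all members 23.1% and 7.87% were, and among all peaks 8.19% and 2.71%.

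Of the other lists, the member near *Hnf4a*, a nuclear receptor of the endoderm, was among the more stable. Its intronic window read 6.26, 6.01 and 5.68 in KO late morula, 3.93, 4.38 and 4.77 in KO morula and 4.88, 4.01, 4.81 and 4.99 in KO early ICM. Both differences, 1.62 ± 0.328 (adjusted p = 0.0011, limma) and 1.31 ± 0.307 (adjusted p = 0.0012), held without any 1 library. It was also higher in KO late ICM of the *Pou5f1* line (0.96 ± 0.284, adjusted p = 0.0091, 0.073 without Ctrl late ICM replicate 2) and of the *Sox2* line (1.06 ± 0.284, adjusted p = 0.0081, 0.057 without Ctrl late ICM replicate 3), and in *Sox2*-KO early ICM (1.05 ± 0.284, adjusted p = 0.023, 0.13 without Ctrl early ICM replicate 4). The member in *Kndc1* that lies within 10 kb of *Utf1*, a chromatin factor of pluripotent cells, read 5.41, 5.85 and 5.40 in KO late morula and 4.61, 3.39, 3.89 and 3.70 in KO early ICM (1.66 ± 0.341, adjusted p = 0.00023, limma). In late ICM it read 5.41, 5.58, 5.08 and 5.30 in *Pou5f1*-KO and 3.997, 4.21, 4.49 and 4.46 in Ctrl, a difference of 1.05 ± 0.315 (adjusted p = 0.011). Against KO morula the difference of KO late morula was 1.49 ± 0.364 (adjusted p = 0.0087, limma, 0.17 without KO morula replicate 2), and in *Sox2*-KO late ICM it was 0.95 ± 0.315 above Ctrl (adjusted p = 0.044), a call that leaving out any of 7 of the 8 libraries ended. Its *Pou5f1*-KO late ICM libraries, at 5.08 to 5.58, overlapped those of KO late morula, at 5.40 to 5.85.

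A peak in an intron of *Dab2*, an endocytic adaptor of the primitive endoderm, read 4.92, 5.24, 4.85 and 5.00 in *Pou5f1*-KO late ICM and 3.20, 3.47, 3.23 and 4.21 in Ctrl (1.48 ± 0.427, adjusted p = 0.0078, limma), a call kept without any 1 library. It was 2.21 ± 0.493 higher in KO late morula than in KO morula (adjusted p = 0.0036, limma, 0.087 without KO morula replicate 3). Of the Hippo members, a peak 4887 bp from *Mob1b*, a coactivator of the LATS kinases, read 3.42, 3.65, 3.49 and 3.751 in *Pou5f1*-KO late ICM and 0.82, 2.74, 2.60 and 2.45 in Ctrl (1.43 ± 0.432, adjusted p = 0.011, limma, 0.13 without Ctrl late ICM replicate 1). In KO late morula it was 1.47 ± 0.466 above KO early ICM (adjusted p = 0.018, limma, 0.079 without KO early ICM replicate 2). The peak 9146 bp from *Wwtr1*, which encodes the coactivator TAZ, had differences below the threshold in KO embryos (1.39 ± 0.495 to KO morula, adjusted p = 0.099, limma). The peak near *Prkci*, an atypical protein kinase C of the apical domain, was called in *Sox2*-KO late ICM (1.56 ± 0.441, adjusted p = 0.013, limma, 0.069 without Ctrl late ICM replicate 3). The peak in an intron of *Col4a2*, a basement membrane collagen, was near the floor of the scale in all KO libraries, from -0.63 to 0.87, and its difference of KO late morula to KO morula was 0.02 ± 0.416 (adjusted p = 0.99, limma), a sign that turned without any of 3 libraries.

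The remaining named members of the lists had at most 1 of both KO stage differences past the threshold, apart from the peak near *Tead2*, whose window lies in *Dkkl1*. It read 4.65, 4.39 and 3.14 in KO late morula and 3.34, 1.02 and 2.41 in KO morula, groups that overlapped (1.80 ± 0.522, adjusted p = 0.032, limma, 0.31 without KO morula replicate 2), and was 1.52 ± 0.489 above KO early ICM (adjusted p = 0.02, 0.14 without KO late morula replicate 1). The peak near *Fgfr1*, in *Letm2*, was called against KO morula only (1.92 ± 0.511, adjusted p = 0.018, limma, 0.13 without KO morula replicate 2). Those near *Fgfr4*, an FGF receptor gene, and *Atp1b1*, a subunit of the sodium pump, were called against KO early ICM only. The values were 1.39 ± 0.455 (adjusted p = 0.022, limma, 0.19 without KO late morula replicate 1) and 1.23 ± 0.415 (adjusted p = 0.027, 0.14 without KO early ICM replicate 4), and the *Atp1b1* peak was 1.18 ± 0.384 higher in *Sox2*-KO than in Ctrl late ICM (adjusted p = 0.038, 0.15 without KO late ICM replicate 3). At *Esrrb*, *Spry1*, *Prkci* and *Wwtr1* neither stage difference reached the threshold in KO embryos.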

How the data were processed

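ATAC-seq libraries of pooled embryos were analysed, and replicates are pools. Per the labels and the study's methods, the authors mapped reads to mm10 (Bowtie2), removed duplicates (Picard), called peaks (MACS2), counted Tn5 insertions in 200 bp windows (bedtools) and deposited rlog values on the log2 scale (DESeq2), together with condition means, which were checked to match the library means. Insertion counts and depth are unknown here.

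From these values limma 3.58.1 (R 4.3.3; lmFit, contrasts.fit, eBayes with a trend) fitted 1 mean per condition over all 44 libraries and 152393 peaks, with no filter or covariate. Two-sided p-values were adjusted by Benjamini-Hochberg over all peaks and called under 0.05. The calling was tested on simulated data. Annotation was GENCODE vM21 (the authors used vM23), and sequences came from the RefSeq copy of GRCm38. Words were searched on both strands, and members on chromosome 18 were counted but no sequence is printed. Python 3.11.15, numpy 2.4.6 and pandas 2.3.3 were used.

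Members and gene lists were chosen with earlier results of these data known. Named peaks were the 8 members with the largest KO differences among those called in both stage comparisons with no overlap between libraries, the 4 with the largest Ctrl differences, the 3 just inside and 3 just outside the limits, the 2 largest increases and decreases without overlap in each KO comparison of ICMs, and up to 3 members per gene list, those with the largest smaller-of-both KO difference. A few of these peaks are not reported here. Alternatives were other limits, a filter at the median rlog, quantile normalization, only the compared libraries, a size limit, each library left out, the replicate number as a block, and looser words or distances. Tests of differences between KO effects, combined calls and medians were added after seeing the data.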

Additional observations from a re-analysis of the deposited data

Results flagged for a closer look

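At the intronic peak of *Dchs2*, *Sox2* Ctrl early ICM replicate 4 had an rlog of 1.97 and stood apart from the other 3 libraries of its group, whose values were 0.77, 0.75 and 0.58. It was the only one of 46 groups of 4 libraries checked that passed Dixon's test, which flags about 1 group in 20 by chance. Without it the difference between KO and Ctrl was 2.39, against 2.08 with it.

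In a test of the difference itself (limma, adjusted p under 0.05), the effect of *Pou5f1* loss in late ICM was more positive than that of *Sox2* loss at 23 members (0.322%, near the 0.351% of all peaks) and less positive at 9 (0.126%, against 0.554%).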

How the results depend on the processing

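All counts below are members called at an adjusted p under 0.05 by limma unless said otherwise. Quantile normalization and a size limit of 1 left each count of members called higher within 1.5 times its value. Leaving out 1 library at a time gave ranges of 252 to 851 for KO late morula over KO morula, 981 to 2108 over KO early ICM and 626 to 976 over KO late ICM, and 85 to 590 for the first 2 together. For both late ICM knockouts the range was 150 to 250, and in these joint counts a comparison that did not use the library left out kept its calls from the fit to all libraries. The ranges were 327 to 654 for KO late over KO early ICM, 1279 to 1512 for *Pou5f1*-KO late ICM, 15 to 36 for *Sox2*-KO early ICM, 320 to 509 for *Sox2*-KO late ICM, 0 to 13 for *Sox2* Ctrl late over early ICM, 1499 to 2096 for both limits in KO embryos and 6847 to 8296 for the number of members. A filter at the median rlog left 2496 members and, in part from there being fewer peaks, counts of 641 (KO late morula over KO morula), 805 (over KO early ICM), 283 (both), 252 (over KO late ICM), 433 (KO late over early ICM), 952 (*Pou5f1*-KO late ICM) and 6 (*Sox2* Ctrl late over early ICM). These counts are out of 2496 members and those without the filter out of 7152, so a lower count is not by itself a lower share. Median differences over these members moved to 1.09 (KO late morula over KO morula), 0.106 (over KO late ICM), 0.76 (KO late over early ICM), 0.86 (*Pou5f1*-KO late ICM), 0.60 (*Sox2*-KO late ICM) and 0.46 (late minus early effect of *Sox2* loss), from 0.93, 0.32, 0.50, 0.59, 0.36 and 0.26. With only the compared libraries fitted, *Sox2*-KO early ICM had 8 and the *Sox2* Ctrl stages 6. Limits of 0.75 and 1.5 gave 12790 and 1798 members, and limits of 0.75 and 0.5 in KO embryos gave 2849 and 4058 members. Within 1000 bp of a start site lay 11.1% of members and 20.3% of all peaks.

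Replicate numbers were not used as pairs in the main fit, as nothing in the labels says what a number stands for. In no comparison did every pair correlate above 0.1, which does not exclude pairing. Between stages r was -0.105 to 0.123 and 5 of 17 libraries matched their own number best. Between KO and Ctrl of one stage r was -0.0248 to 0.293 and 9 of 12 did, a hint from the data and not from the design. With the replicate number as a block, the counts were 58 for *Sox2*-KO early ICM, 6 for the *Sox2* Ctrl stages and 445 for both late ICM knockouts, and the other counts of members called higher stayed within 1.5 times.

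With 1 more mismatch the share of members with a word was 81.1% for CDX, 36% for GRHL, 87.7% for GATA, 70.4% for AP-1, 90.9% for TEAD, 55.7% for T-box, 99.2% for NF-Y, 61.8% for KLF, 77.0% for OCT, 39.9% for ETS, 43.2% for CTCF, 62.1% for TFAP2, 38.3% for SOX, 74.8% for OTX and OBOX, 42.4% for SP and KLF, 5.02% for OCT-SOX and 23.8% for ESRRB and NR5A. Among all peaks the share was 70.6% for CDX, 27.4% for GRHL, 80.9% for GATA, 64.7% for AP-1 and 88.8% for TEAD. The order of members and all peaks turned for OCT (73.9% of all peaks) and OTX and OBOX (72.7%). At the *Col4a2* peak the difference of KO late morula to KO morula ranged from -0.0901 to 0.22 with 1 library left out, and was below 0 without KO late morula replicate 1, KO morula replicate 2 or KO morula replicate 3. Of the other values at named peaks under an alternative, 851 kept their side of the threshold and 94 lost the call. Depth is unknown, so a weak difference at a weak peak may have been missed, and the cause of none of these changes was tested beyond the smaller number of peaks or libraries.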
